A study of Setaria viridis with 22 samples.

Results

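Expression in whole inflorescence primordia of *Setaria viridis* A10.1, the wild type (WT), was compared between 14 and 12 days after sowing (DAS). The libraries were taken by their labels: 4 of A10.1 at 14 DAS and 3 of A10.1 at 12 DAS, out of 22 libraries in the series. A gene was tested where its FPKM (fragments per kilobase of transcript, scaled to the mapped fragments of the library) averaged 1 or more over these 7 libraries, which left 17618 of the 35214 genes in the deposited table. Each library came from a pool of inflorescence primordia dissected by hand from growth chamber plants in a fixed morning window, so a value is an average over plants and over all cell types of the primordium. The other groups used here are A10.1 at 10 DAS (4 libraries) and, at 14 DAS (4 libraries) and 12 DAS (3 libraries), the *sparse panicle1* (*spp1*) mutant, which carries a defect in the auxin importer SPP1/SvAUX1 and whose allele the labels do not name. All groups grew under the same conditions, and the labels give no treatment for any of them.

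In grasses the inflorescence meristem forms branch meristems, which branch again and then turn into spikelet meristems. In *Setaria*, some branches end instead as sterile bristles. TERMINAL FLOWER1-like and TAWAWA1-like proteins are known to keep meristems in the branching state, RAMOSA proteins limit branching in maize, and AP2/ERF and MADS-box transcription factors give spikelet and floral meristems their identity. Auxin, moved into cells by AUX1-type importers and out of them by PIN proteins, marks the places where new primordia form.

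The libraries of the stages were separate in a principal component analysis of the 7 libraries. PC1 held 44.2% of the variance, with scores of 21.1, 25.2, 8.0, and 16.8 for replicates 1 to 4 at 14 DAS, against -24, -23, and -24 for the 12 DAS libraries. Replicate 3 of 14 DAS was the library of that stage nearest to 12 DAS. Mapped first reads numbered 16.4 to 18.8 M at 14 DAS and 13.4 to 19.5 M at 12 DAS, and 89.3% to 93.2% of first reads mapped at 14 DAS, against 92.3% to 93.2% at 12 DAS. The 100 most abundant genes of a library took 22.4% to 24.5% of all FPKM at 14 DAS and 24.3% to 25.3% at 12 DAS. FPKM carry no counts, so the spread between libraries is the only measure of precision, and the label "replicate" was taken to mean a separate pool, as the protocol states.

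Between 12 and 14 DAS, large rises occurred in a *BRANCHED SILKLESS1* (*bd1*)-like gene, a homeobox gene, a SEPALLATA-type MADS-box gene, a trehalose-phosphate synthase gene, and *SvRA3*. Among annotated genes without overlap between the stages, the largest declines were of an inositol oxygenase gene, *SvTFL1-like1*, and a *TAW1*-like gene. In total, 1053 genes passed an adjusted p of 0.05 (limma, Benjamini-Hochberg over all genes tested), which is 5.98% of those tested. Of these, 521 were higher at 14 DAS (2.96%) and 532 were lower (3.02%). The median difference was 0.71 for the rising genes and -0.75 for the falling genes on the log2(FPKM + 1) scale, which is used for every log2 difference here. More than 2-fold changes numbered 222 (1.26%), of which 115 were rises and 107 were declines. Before adjustment, 3986 genes had a p under 0.05. The libraries of the stages did not overlap for 3712 genes (21.1%), and they did not overlap for 520 of the 521 rising and 530 of the 532 falling genes. The balance of directions depended on scale: the median of all genes was 0.063, and dividing each library by its median ratio brought this to 0.007, with 431 rises (37.6%) among 1146 calls, against 49.5% of calls in the values as deposited. The count also depended on single 12 DAS libraries, being 574 without replicate 4 and 593 without replicate 2.

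**Figure D1:**
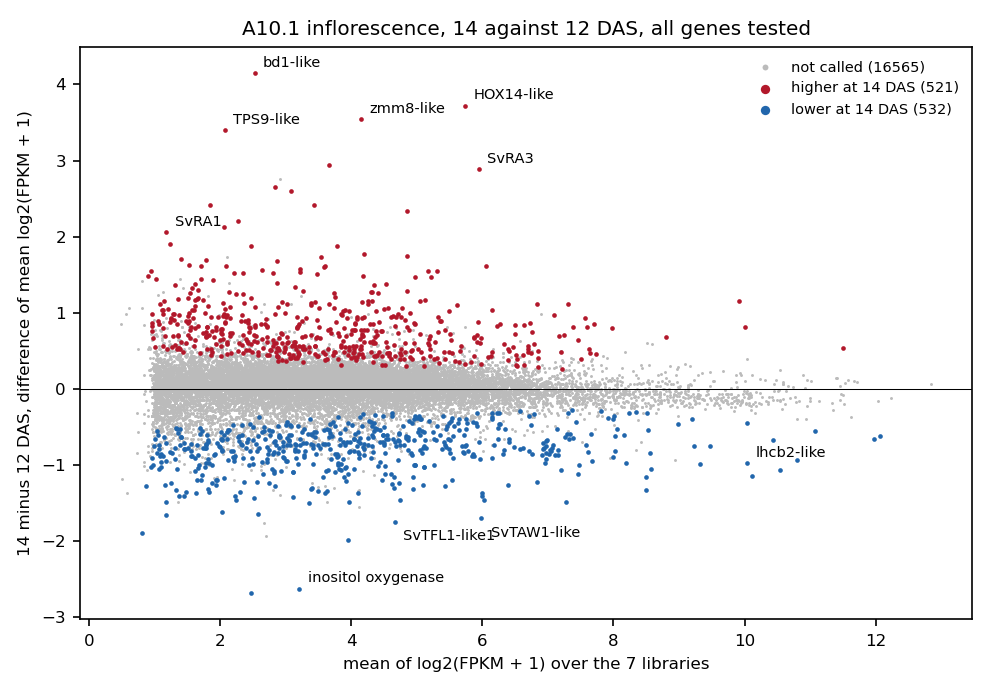
Difference between 14 and 12 DAS (mean log2(FPKM + 1) at 14 DAS minus that at 12 DAS, y axis) against the mean of log2(FPKM + 1) over the 7 libraries (x axis) for the 17618 genes tested. Red points are the 521 genes higher and blue points the 532 genes lower at 14 DAS, and both kinds occur over the whole range of levels.

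Calls were spread over all levels. Among 4 equal groups of genes ordered by mean FPKM, the percent called was 6.15%, 5.25%, 5.54%, and 6.97% from the lowest to the highest. In the highest group, with means of 27.7 FPKM or more, 186 genes were lower and 121 higher at 14 DAS. In the lowest group, with means up to 4.64 FPKM, 149 were higher and 122 lower.

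Gene names and descriptions were deposited for 2952 genes only, those in the deposited tables titled as genes that differ between genotypes at 10, 12, or 14 DAS, which rest on libraries that include the ones used here. Of the 2773 such genes tested, 274 rose and 262 fell, which is 19.3%, with a median of 0.17, so the counts of gene groups built from these descriptions are set against 19.3% rather than 5.98%. Among 92 tested genes with a classical maize gene name, 12 rose and 24 fell (39.1%).

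The *bd1*-like gene (Sevir.2G437800) encodes an ethylene response factor whose maize homolog sets spikelet meristem identity. It had 13.5, 22.1, 15.1, and 27.7 FPKM at 14 DAS, against 0.38, 0, and 0 FPKM at 12 DAS. Every 14 DAS library was far above the 12 DAS libraries, with a log2 difference of 4.15 ± 0.24 (SE, adjusted p = 5.87e-05, limma). The *HOX14*-like gene (Sevir.2G379700), of the homeodomain-leucine zipper family, had 162, 213, 135, and 142 FPKM at 14 DAS, against 12.0, 11.2, and 10.6 FPKM at 12 DAS. Its libraries were tight within each stage and far apart between stages (3.72 ± 0.14, adjusted p = 5.56e-06). A MADS-box gene with the maize name *zmm8* (Sevir.4G060800, MADS5-like), of the SEPALLATA clade that acts in spikelets and flowers, had 49.0, 63.6, 38.5, and 51.5 FPKM at 14 DAS, against 4.01, 2.92, and 3.29 FPKM at 12 DAS. This was a difference of 3.54 ± 0.16 (adjusted p = 1.07e-05). All 3 genes kept their call under every alternative.

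The RAMOSA genes are known in maize for making branches short and determinate. *SvRA3* (Sevir.2G407500), a trehalose-phosphate phosphatase gene, had 128, 180, 122, and 155 FPKM at 14 DAS, against 24.4, 18.7, and 14.2 FPKM at 12 DAS, a difference of 2.89 ± 0.18 (adjusted p = 8.76e-05, limma). *SvRA1* (Sevir.2G209800), a C2H2 zinc finger transcription factor gene, had 2.67, 3.83, 2.93, and 3.39 FPKM at 14 DAS and was listed at 0 in all 3 libraries of 12 DAS (adjusted p = 0.000123). No fold is given for it, since no detection limit can be set from FPKM. *SvRA2* (Sevir.5G116100), a LOB domain gene, averaged 25.8 ± 3.95 FPKM at 14 DAS and 19.8 ± 1.99 FPKM at 12 DAS (SD, n = 4 and 3), and its difference of 0.36 ± 0.12 did not pass (adjusted p = 0.125). A second SUPERMAN-like zinc finger gene (Sevir.7G118500), given the same description as *SvRA1*, rose as well: 17.3, 24.9, 18.1, and 25.1 FPKM at 14 DAS, against 3.15, 3.50, and 2.84 FPKM at 12 DAS (2.41 ± 0.15, adjusted p = 8.31e-05).

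All 4 *TAW1* family genes fell. TAW1, known from rice, belongs to the ALOG family and delays the change from branch to spikelet. *SvTAW1* (Sevir.9G221800) had 20.7, 17.0, 16.8, and 11.2 FPKM at 14 DAS, against 46.4, 40.6, and 36.6 FPKM at 12 DAS (-1.30 ± 0.18, adjusted p = 0.0035, limma). The most abundant *SvTAW1-like* gene (Sevir.7G176000) had 50.1, 36.3, 44.3, and 23.1 FPKM at 14 DAS, against 147, 119, and 106 FPKM at 12 DAS (-1.70 ± 0.23, adjusted p = 0.00342). The remaining *SvTAW1-like* genes had differences of -1.25 ± 0.19 (Sevir.4G277900, adjusted p = 0.00553) and -1.23 ± 0.16 (Sevir.1G244200, adjusted p = 0.00321). In each of these genes the lowest 14 DAS library was replicate 4, and every 14 DAS library lay below every 12 DAS library.

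The TFL1 homologs fell too. *SvTFL1-like1* (Sevir.1G183200, maize name *zcn2*), related to proteins that hold meristems indeterminate, had 16.5, 15.1, 15.9, and 10.06 FPKM at 14 DAS, against 55.4, 43.9, and 49.6 FPKM at 12 DAS (-1.74 ± 0.16, adjusted p = 0.000741, limma). *SvTFL1* (Sevir.8G033800, *zcn1*) was far less abundant, at 0.55, 0.71, 0.71, and 0.67 FPKM at 14 DAS, against 1.25, 2.72, and 2.29 FPKM at 12 DAS (-0.86 ± 0.18, adjusted p = 0.0229). The 4 *TAW1* family genes and *SvTFL1-like1* kept their calls under all 15 alternatives, whereas *SvTFL1* kept its call in 10 of 14.

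**Figure D2:**
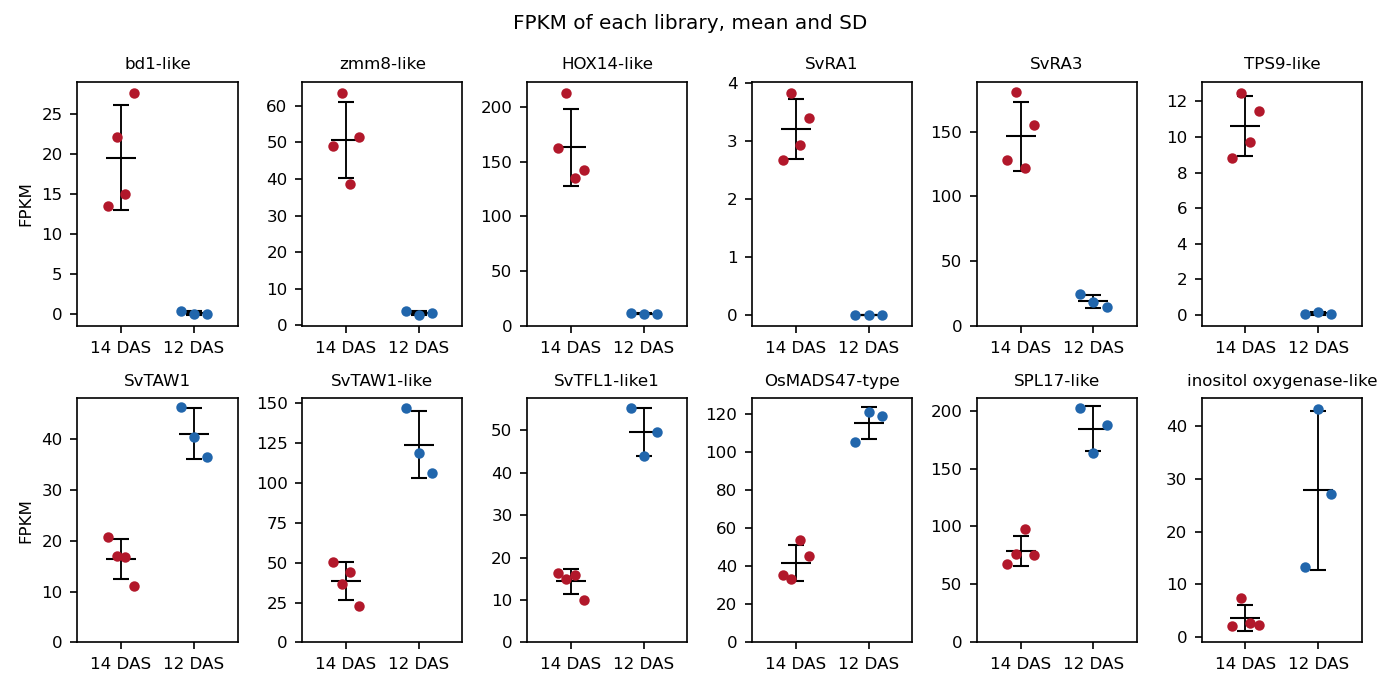
FPKM of each library at 14 DAS (red) and 12 DAS (blue), with the mean and SD of each stage as bars, for 6 genes that rose (top row) and 6 that fell (bottom row). Each panel has its own y axis, and the libraries of the stages do not overlap in any panel, and *SvRA1* lies at 0 in the 3 libraries of 12 DAS.

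The 14 tested MADS-box genes moved in both directions, with 7 higher, 4 lower, and a median of 0.46, against 0.17 for all annotated genes. The share called was 78.6%, against 19.3% of annotated genes. Next to *zmm8*, the *MADS56*-like gene (Sevir.9G347400) had 20.1, 30.3, 18.9, and 24.4 FPKM at 14 DAS, against 4.96, 6.20, and 5.45 FPKM at 12 DAS (1.88 ± 0.15, adjusted p = 0.000416, limma). An APETALA1-clade gene named *zap1* (Sevir.2G006400) averaged 212 ± 22.4 FPKM at 14 DAS and 121 ± 25.9 FPKM at 12 DAS (SD, 0.82 ± 0.13, adjusted p = 0.00774), and the *MADS34*-like gene (Sevir.9G087100), whose rice homolog acts in spikelet meristems, averaged 116 ± 15.5 and 63.9 ± 7.72 FPKM at 14 and 12 DAS (0.84 ± 0.12, adjusted p = 0.00362). The gene that fell most, annotated as *OsMADS47* and related to *SVP* (Sevir.9G518400), had 35.3, 33.2, 53.6, and 45.6 FPKM at 14 DAS, against 105, 121, and 119 FPKM at 12 DAS (-1.46 ± 0.15, adjusted p = 0.00115). A *MADS20*-like gene (Sevir.3G374400) of the FRUITFULL clade fell to 1.21 ± 0.249 FPKM at 14 DAS, against 4.11 ± 1.10 FPKM at 12 DAS (-1.19 ± 0.16, adjusted p = 0.0035). With any 1 library left out, 6 or 7 members rose and 4 fell.

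Of 15 AP2/ERF genes tested, 5 rose and 3 fell (53.3%, against 19.3% of annotated genes, median 0.32). Besides the *bd1*-like gene, the *ERF12*-type genes Sevir.5G352900 (8.71 ± 1.10 FPKM at 14 DAS and 1.63 ± 0.18 FPKM at 12 DAS, 1.88 ± 0.12, adjusted p = 8.76e-05, limma) and Sevir.3G196400 (61.0 ± 10.2 FPKM at 14 DAS and 29.4 ± 5.89 FPKM at 12 DAS, 1.03 ± 0.16, adjusted p = 0.00566) rose. The AP2 genes with the maize names *ts6* (Sevir.9G034800), which sets spikelet meristem fate, and *gl15* (Sevir.4G213500), which marks juvenile leaves, fell by 0.67 ± 0.15 (adjusted p = 0.028) and 0.63 ± 0.16 (adjusted p = 0.0469), calls that held in 9 and 7 of 15 alternatives. The declines were the less stable side, with 1 to 3 calls when a library was left out.

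Of 24 homeobox genes, 9 rose and 2 fell (45.8%, against 19.3% of annotated genes, median 0.31). A zinc finger homeodomain gene (Sevir.6G166800, *HB29*-like) averaged 160 ± 33.2 FPKM at 14 DAS and 73.6 ± 16.3 FPKM at 12 DAS (1.11 ± 0.17, adjusted p = 0.00587, limma). The BEL1-like gene *kip1* (Sevir.9G138200), from a family that pairs with KNOTTED1-type proteins, fell by 0.84 ± 0.15 (adjusted p = 0.013). The number of rising members was 5 without replicate 4 of 12 DAS.

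Of 7 SBP-box genes, a family that includes regulators of branching, 3 rose and 1 fell (57.1%, against 19.3% of annotated genes). Rises of like size were seen in *SvLG1* (Sevir.3G023500), an *SPL13*-like gene (Sevir.2G336100), and an *SPL5*-like gene (Sevir.1G065500), at 0.68 ± 0.13, 0.68 ± 0.13, and 0.65 ± 0.15 (adjusted p = 0.0152, 0.0181, and 0.0317, limma). *SvLG1* had 63.0, 90.6, 72.4, and 60.9 FPKM at 14 DAS, against 44.3, 42.9, and 44.6 FPKM at 12 DAS. None of these 3 rises passed without replicate 4 of 12 DAS. The *SPL17*-like gene (Sevir.2G265300) fell, with 67.2, 76.1, 97.5, and 75.4 FPKM at 14 DAS, against 202, 164, and 187 FPKM at 12 DAS (-1.22 ± 0.13, adjusted p = 0.00107), and kept its call under every alternative.

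Genes for axillary meristems and boundaries had differences under 1. *SvBA1* (Sevir.5G374100), a bHLH gene needed in maize to initiate axillary meristems, had 73.0, 98.0, 63.6, and 74.0 FPKM at 14 DAS, against 54.5, 39.2, and 50.5 FPKM at 12 DAS. The difference of 0.67 ± 0.15 passed narrowly (adjusted p = 0.0359, limma) and kept its call in 5 of 15 alternatives. The TCP gene named *tb1* (Sevir.9G122200), which represses axillary bud growth in maize, averaged 53.4 ± 6.81 FPKM at 14 DAS and 28.3 ± 4.10 FPKM at 12 DAS (0.89 ± 0.13, adjusted p = 0.00391). A *CUP-SHAPED COTYLEDON2*-like NAC gene (Sevir.4G124400), of a family that separates organs, averaged 205 ± 17.5 FPKM at 14 DAS and 154 ± 7.21 FPKM at 12 DAS (0.40 ± 0.08, adjusted p = 0.023) and kept its call in 7 of 15 alternatives. The GATA gene *SvTSH1* (Sevir.3G136200, -0.08 ± 0.13, adjusted p = 0.759), the TCP gene *SvBAD1* (Sevir.2G210100, 0.45 ± 0.15, adjusted p = 0.112), and the AT-hook gene *SvBAF1* (Sevir.4G025200, 0.35 ± 0.18, adjusted p = 0.289) did not pass. The same held for the cytokinin response regulator gene *SvABPH1* (Sevir.7G182100, 0.16 ± 0.19, adjusted p = 0.651). A missed test does not show equal expression. A YABBY gene named *yab15* (Sevir.1G255800), from a family acting in lateral organs, fell by 0.87 ± 0.13 (adjusted p = 0.00446), and a KANADI-type gene (Sevir.6G158800, *kan1* and *kan3*) by 0.84 ± 0.17 (adjusted p = 0.0228).

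Of the 34 genes that the study labelled in its comparison of the genotypes, 33 were tested here, of which 6 rose and 8 fell. That is 42.4%, against 19.3% of annotated genes and 5.98% of all genes tested. The auxin importer genes among them were shown whatever their result. Others were picked on libraries that include these, so the counts describe the labelled genes only.

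In the auxin pathway, 66 of 85 listed genes reached 1 FPKM. The list is the auxin pathway table of the study and was not limited to genes that differ between genotypes, so it is set against all genes tested. Of the 66, 10 rose and 2 fell (18.2%, against 5.98% of all genes), with a median of 0.08, against 0.063. Auxin biosynthesis genes differed: the gene of a YUCCA-type monooxygenase (Sevir.5G251100), which makes auxin in its last step, had 40.7, 50.2, 48.6, and 39.3 FPKM at 14 DAS, against 30.5, 23.96, and 26.6 FPKM at 12 DAS (0.70 ± 0.12, adjusted p = 0.00793, limma). *SvVT2* (Sevir.5G116300), encoding the aminotransferase of the step before it, had 20.1, 23.0, 22.7, and 19.8 FPKM at 14 DAS, against 39.1, 27.9, and 31.9 FPKM at 12 DAS (-0.59 ± 0.12, adjusted p = 0.0191). These were the only biosynthesis genes listed, and they moved in opposite directions.

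The importer gene *SPP1* (Sevir.5G392400) averaged 32.6 ± 2.61 FPKM at 14 DAS and 27.0 ± 2.30 FPKM at 12 DAS, a difference of 0.26 ± 0.09 that did not pass (adjusted p = 0.136, limma). Its homolog *SvAUX4* (Sevir.9G295700) had 130, 128, 105, and 119 FPKM at 14 DAS, against 96.1, 81.3, and 72.7 FPKM at 12 DAS (0.53 ± 0.11, adjusted p = 0.0237), and its call held in 7 of 15 alternatives. *SvAUX2* (Sevir.3G228500, 0.44 ± 0.13, adjusted p = 0.0907) and *SvAUX5* (Sevir.9G475300, -0.26 ± 0.12, adjusted p = 0.243) did not pass, and *SvAUX3* (Sevir.8G047900) averaged below 1 FPKM and was not tested. Among the 7 tested efflux carrier genes, a *PIN3a*-like gene (Sevir.5G249500) had 35.1, 47.9, 35.8, and 39.2 FPKM at 14 DAS, against 22.03, 15.6, and 20.4 FPKM at 12 DAS (1.00 ± 0.14, adjusted p = 0.00384). A *PIN2*-like gene (Sevir.4G158100) averaged 2.14 ± 0.312 FPKM at 14 DAS and 0.657 ± 0.195 FPKM at 12 DAS (0.92 ± 0.14, adjusted p = 0.00579). The remaining 5 did not pass.

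The share of signaling genes that passed was 8.33% for AUX/IAA repressors, 12.5% for auxin response factors, and 33.3% for the 3 receptors. Of all genes tested, 5.98% passed. Of 24 AUX/IAA repressor genes, only the *IAA13*-like gene (Sevir.9G095600) rose, with 14.4 ± 2.28 FPKM at 14 DAS and 5.97 ± 0.585 FPKM at 12 DAS (1.14 ± 0.13, adjusted p = 0.00156, limma), and only the *IAA31*-like gene (Sevir.3G396300) fell, with 3.08 ± 0.563 and 5.72 ± 0.274 FPKM at 14 and 12 DAS (-0.73 ± 0.12, adjusted p = 0.00903). Of 24 auxin response factor (ARF) genes, 3 rose: ARF6-type genes Sevir.4G275100 (0.56 ± 0.10, adjusted p = 0.00903) and Sevir.3G021400 (0.47 ± 0.10, adjusted p = 0.0302), and an ARF3-type gene (Sevir.5G324700, 0.36 ± 0.09, adjusted p = 0.0427), the last of which kept its call in 7 of 15 alternatives. Of the 3 auxin receptor genes, Sevir.7G085300 passed at 0.29 ± 0.07 (adjusted p = 0.0455) and kept that call in 4 of 15 alternatives. The number of rising pathway genes was 5 without replicate 4 of 12 DAS or without replicate 1, 2, or 4 of 14 DAS. Of 12 further genes described as auxin-induced or auxin-repressed, none of them in the pathway list, 5 rose and 2 fell. The GH3 genes, which conjugate auxin to amino acids, were low, at 4.36 ± 0.893 FPKM (Sevir.5G333300) and 3.59 ± 0.215 FPKM (Sevir.5G347300) at 14 DAS, against 0.73 ± 0.208 and 1.33 ± 0.543 FPKM at 12 DAS (1.62 ± 0.16 and 1.00 ± 0.15, adjusted p = 0.000849 and 0.00561).

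Of 15 tested trehalose genes, *SvRA3* among them, 8 rose and 1 fell, with a median of 0.57. The share called was 60.0%, against 19.3% of annotated genes. Trehalose-6-phosphate is a signal of sugar status made by synthases (TPS) and removed by phosphatases (TPP), of which RA3 is one. The *TPS9*-like gene (Sevir.6G172300) had 8.81, 12.5, 9.72, and 11.5 FPKM at 14 DAS, against 0.05, 0.19, and 0.05 FPKM at 12 DAS (3.4 ± 0.14, adjusted p = 5.56e-06, limma). A *TPP8*-like gene (Sevir.4G091700) had 49.2, 72.7, 60.7, and 48.1 FPKM at 14 DAS, against 23.6, 18.2, and 18.2 FPKM at 12 DAS (1.47 ± 0.15, adjusted p = 0.00111). A *TPS11*-like gene (Sevir.1G354200) had 38.3, 50.2, 39.0, and 39.3 FPKM at 14 DAS, against 13.6, 16.3, and 19.5 FPKM at 12 DAS (1.29 ± 0.13, adjusted p = 0.00107). Both enzyme types were thus among the rises. The count of rises was 5 without replicate 2 or without replicate 4 of 12 DAS.

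Genes of sugar transport and cleavage numbered 14, with 5 higher and 1 lower (42.9%, against 19.3% of annotated genes). They included a *SWEET16*-like transporter gene (Sevir.9G414000, 0.95 ± 0.20, adjusted p = 0.0257, limma) and an inositol transporter gene (Sevir.2G037400, 0.88 ± 0.12, adjusted p = 0.0035). The cell wall invertase gene *incw1* (Sevir.1G184800), which cleaves sucrose outside cells, fell by 0.73 ± 0.16 (adjusted p = 0.0297). The rises numbered 3 without any 1 of the 12 DAS libraries or without replicate 4 of 14 DAS. Of 12 ethylene and abscisic acid genes, 4 rose and none fell (33.3%). The highest were an *ABI5*-like bZIP gene (Sevir.5G394500, 11.1 ± 1.35 FPKM at 14 DAS and 2.77 ± 0.466 FPKM at 12 DAS, 1.68 ± 0.13, adjusted p = 0.000254) and an ACC oxidase gene (Sevir.1G341800) for the last step of ethylene synthesis (48.6 ± 13.7 FPKM at 14 DAS and 17.3 ± 5.99 FPKM at 12 DAS, 1.47 ± 0.26, adjusted p = 0.011). The ethylene and abscisic acid group had 2 rises under median-ratio scaling and without replicate 2 or 4 of 12 DAS or replicate 2 of 14 DAS. The jasmonate-related gene *ts2* (Sevir.9G439800), which removes pistils in maize, averaged 4.64 ± 0.668 FPKM at 14 DAS and 1.86 ± 0.367 FPKM at 12 DAS (0.98 ± 0.14, adjusted p = 0.00375). An allene oxide synthase gene (Sevir.9G488000), for an early step of jasmonate synthesis, fell to 96.1 ± 21.8 FPKM at 14 DAS, against 181 ± 26.5 FPKM at 12 DAS (-0.92 ± 0.16, adjusted p = 0.0116).

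Of the cytokinin genes 11.1% passed, and of the gibberellin genes 15.4%, against 19.3% of annotated genes. Of 27 cytokinin genes, 1 rose and 2 fell. The rising gene (Sevir.9G219500), for an enzyme that activates cytokinin, averaged 135 ± 17.4 FPKM at 14 DAS and 79.8 ± 12.0 FPKM at 12 DAS (0.75 ± 0.12, adjusted p = 0.00801, limma), while a falling gene with the lysine decarboxylase domain of that enzyme family (Sevir.3G166700) averaged 21.4 ± 5.69 FPKM at 14 DAS and 47.5 ± 5.93 FPKM at 12 DAS (-1.15 ± 0.20, adjusted p = 0.0116). Of 13 gibberellin genes, a receptor-like gene (Sevir.3G252200) rose by 0.45 ± 0.11 (adjusted p = 0.0416) and a GAST1-like gene (Sevir.3G269700) fell by 0.95 ± 0.17 (adjusted p = 0.0123). The receptor-like gene kept its call in 5 of 15 alternatives and lost it under median-ratio scaling.

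The shares called were 29.0% for bHLH, 21.3% for MYB, and 23.1% for zinc finger and GATA genes. Among annotated genes the share was 19.3%. Of 31 bHLH genes, 6 fell and 3 rose (median -0.19). The strongest decline was of a *bHLH14*-like gene (Sevir.6G239700), which averaged 7.17 ± 0.959 FPKM at 14 DAS and 19.9 ± 1.70 FPKM at 12 DAS (-1.36 ± 0.12, adjusted p = 0.000494, limma). None of the 3 bHLH rises passed under median-ratio scaling, without replicate 2 or 4 of 12 DAS, or without replicate 2 or 4 of 14 DAS. Of 47 MYB genes, 6 rose and 4 fell, among them a *MYB306*-like gene (Sevir.6G166200) with 17.4 ± 1.27 FPKM at 14 DAS and 7.86 ± 1.57 FPKM at 12 DAS (1.07 ± 0.13, adjusted p = 0.00198). Without replicate 4 of 12 DAS, 3 MYB genes rose and 2 fell. Of 39 zinc finger and GATA genes, 7 rose and 2 fell. A C2H2 gene (Sevir.2G222600) averaged 13.9 ± 1.61 FPKM at 14 DAS and 4.11 ± 1.43 FPKM at 12 DAS (1.58 ± 0.19, adjusted p = 0.00204).

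Of 61 receptor-like kinase genes, which sense signals at the cell surface, 8 rose and 5 fell. That is 21.3%, near the 19.3% of annotated genes. A proline-rich kinase gene (Sevir.6G188100) averaged 13.8 ± 3.32 FPKM at 14 DAS and 5.78 ± 0.605 FPKM at 12 DAS (1.10 ± 0.16, adjusted p = 0.00482, limma). Without replicate 4 of 12 DAS, 4 rose and 0 fell. Of 17 aquaporin and ion transport genes, 5 rose and 3 fell (47.1%). The *NIP2-2*-like aquaporin gene (Sevir.4G097800) averaged 18.5 ± 1.6 FPKM at 14 DAS and 6.03 ± 3.22 FPKM at 12 DAS (1.61 ± 0.30, adjusted p = 0.0148), and the *NIP3-1*-like gene (Sevir.9G193400) averaged 23.0 ± 6.12 FPKM at 14 DAS and 46.2 ± 7.14 FPKM at 12 DAS (-1.0 ± 0.19, adjusted p = 0.014). Without replicate 2 of 12 DAS, 3 of this group rose and 1 fell, and 3 also rose without replicate 4 of 12 DAS or replicate 1 or 2 of 14 DAS.

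F-box protein genes, whose products mark proteins for degradation, had 13 rises and no decline among 54 tested. That is 24.1%, against 19.3% of annotated genes. The median was 0.31. The largest differences were of Sevir.2G018500 (1.56 ± 0.16, adjusted p = 0.000913, limma) and Sevir.2G069900 (1.20 ± 0.19, adjusted p = 0.00566). Of the 13, 9 have identifiers of chromosome 2, several of them close together. Reads shared between near-identical copies could have been split between them, so these 9 may not be independent, which was not tested. The count was 9 under median-ratio scaling and 7 without replicate 2 of 12 DAS.

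**Figure D3:**
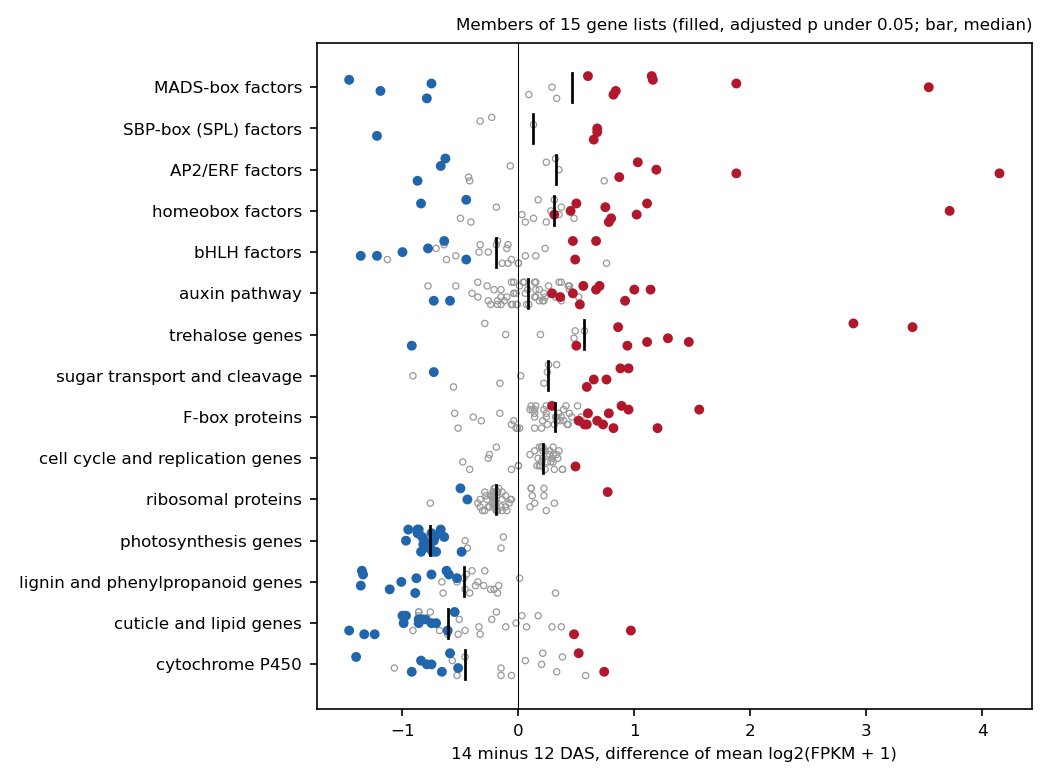
Difference between 14 and 12 DAS on the log2(FPKM + 1) scale (x axis) for every tested member of 15 gene groups (rows). Filled points passed an adjusted p of 0.05 (red higher, blue lower at 14 DAS), open points did not, and the vertical bar is the median of the group, which ranges from 0.57 for trehalose genes to -0.76 for photosynthesis genes.

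Of 28 tested photosynthesis genes, 24 fell and none rose, with a median of -0.76 and every difference below 0. The share called was 85.7%, against 19.3% of annotated genes. A chlorophyll a-b binding protein gene named *lhcb2* (Sevir.2G310200) had 637, 653, 960, and 946 FPKM at 14 DAS, against 1240, 1800, and 1643 FPKM at 12 DAS (-0.97 ± 0.18, adjusted p = 0.0137, limma). An oxygen-evolving enhancer gene (Sevir.2G353200) averaged 109 ± 3.49 FPKM at 14 DAS and 202 ± 19.2 FPKM at 12 DAS (-0.87 ± 0.08, adjusted p = 0.000741). Replicates 3 and 4 of 14 DAS lay above replicates 1 and 2 for *lhcb2* but below every 12 DAS library. The group includes markers of leaf tissue. All 26 leaf marker genes had a value above 0 in every library, and their summed level was 2380 to 3050 FPKM at 14 DAS and 4050 to 5490 FPKM at 12 DAS. At 10 DAS it was 6930 to 8050 FPKM. Of the 26, 22 fell and none rose (median -0.77). In bulk RNA, fewer cells of a type and less RNA per cell cannot be told apart, and the part of leaf tissue in this and the other results was not tested. The number of falling photosynthesis genes was 14 without replicate 2 or without replicate 4 of 12 DAS.

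Groups for cell walls and surfaces fell in part. Among lignin and phenylpropanoid genes, 11 of 29 fell and none rose (37.9%, against 19.3% of annotated genes, median -0.47). A laccase gene (Sevir.8G221400), whose enzyme class links lignin units, had 42.1, 41.3, 43.9, and 39.9 FPKM at 14 DAS, against 102, 111, and 114 FPKM at 12 DAS (-1.36 ± 0.07, adjusted p = 4.66e-05, limma). *SvBM3* (Sevir.6G053300, -0.65 ± 0.16, adjusted p = 0.0507) and *SvBM1* (Sevir.1G056800, -0.18 ± 0.19, adjusted p = 0.586), which encode enzymes of the lignin route, did not pass. *gl2* (Sevir.7G244700), described as a hydroxycinnamoyltransferase and known in maize for leaf wax, fell by 0.62 ± 0.08 (adjusted p = 0.00284). Of 37 cuticle and lipid genes, 14 fell and 2 rose (43.2%, median -0.61). They included a wax synthase gene (Sevir.8G218700, -1.46 ± 0.22, adjusted p = 0.00486) and a DIR1-like lipid transfer protein gene (Sevir.5G431200, 249 ± 62.4 FPKM at 14 DAS and 615 ± 44.3 FPKM at 12 DAS, -1.33 ± 0.17, adjusted p = 0.00282). Of 23 cytochrome P450 genes, 8 fell and 2 rose (43.5%), and of 22 peroxidase genes 4 fell and 1 rose (22.7%). A peroxidase gene (Sevir.7G288900) averaged 2.94 ± 1.33 FPKM at 14 DAS and 9.09 ± 0.788 FPKM at 12 DAS (-1.43 ± 0.26, adjusted p = 0.0124). Leaf marker levels were also lower at 14 than at 12 DAS, as given above, and their part in these declines was not tested. Without replicate 2 of 12 DAS, the declines numbered 7 for lignin, 8 for cuticle and lipid, and 5 for P450 genes.

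Smaller wall groups showed single members. The shares called were 22.2% for pectin, 33.3% for expansin and xyloglucan, and 21.4% for cellulose and glucan genes, against 19.3% of annotated genes. Of 9 pectin genes 2 fell, a polygalacturonase gene (Sevir.9G043300, -1.16 ± 0.19, adjusted p = 0.00829, limma) and a pectinesterase gene (Sevir.5G021100, -1.0 ± 0.10, adjusted p = 0.00109). Of 9 expansin and xyloglucan genes, the expansin genes Sevir.5G368500 (*expa1*, -0.87 ± 0.19, adjusted p = 0.0308) and Sevir.3G209800 (-0.84 ± 0.13, adjusted p = 0.00529), which loosen walls, fell and 1 gene rose. The call of *expa1* held in 7 of 15 alternatives. With 1 library left out, the declines of this group numbered 1 or 2. A mannan synthase gene of the cellulose and glucan group (Sevir.1G324400) averaged 3.94 ± 0.799 FPKM at 14 DAS and 1.3 ± 0.271 FPKM at 12 DAS (1.09 ± 0.16, adjusted p = 0.00418).

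Genes of basic cell functions are set against the 19.3% of annotated genes that passed. Of 37 cell cycle and replication genes 1 rose (2.7%), with a median of 0.21, against 0.17 for all annotated genes, and none of 14 tubulin and actin genes passed. Of 55 ribosomal protein genes, 1 rose and 2 fell (5.45%), with a median of -0.19. Both falling genes encode proteins of the chloroplast ribosome, Sevir.5G439700 (-0.50 ± 0.10, adjusted p = 0.0167, limma) and Sevir.9G244100 (-0.44 ± 0.10, adjusted p = 0.0313). Of 52 heat shock genes, 4 rose and 4 fell (15.4%). Leaving out 1 library changed several of these small counts: 0 ribosomal genes fell without replicate 2 or 4 of 12 DAS and 6 without replicate 3 of 14 DAS, 3 cell cycle genes rose without replicate 3 of 14 DAS, and 2 heat shock genes rose without replicate 4 of 14 DAS.

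Other genes with a large rise, chosen by size of change, were a cinnamate beta-D-glucosyltransferase-like gene (Sevir.3G158100, 31.3 ± 13.8 FPKM at 14 DAS and 3.06 ± 1.14 FPKM at 12 DAS, 2.94 ± 0.29, adjusted p = 0.000849, limma), a vacuolar amino acid transporter gene (Sevir.1G353600, 15.6 ± 6.20 and 1.51 ± 0.16 FPKM, 2.65 ± 0.25, adjusted p = 0.000741), and a *RADIALIS*-like MYB gene (Sevir.5G246000, 6.45 ± 1.49 and 0.427 ± 0.458 FPKM, 2.41 ± 0.23, adjusted p = 0.000838). On the falling side, the inositol oxygenase gene (Sevir.4G252300), of an enzyme that supplies wall sugars, had 2.17, 7.44, 2.60, and 2.38 FPKM at 14 DAS, against 13.2, 43.2, and 27.1 FPKM at 12 DAS (-2.62 ± 0.42, adjusted p = 0.00627). It varied by over 3-fold among the libraries of each stage, without overlap between stages. A chloroplast beta-amylase gene (Sevir.9G323200), for starch breakdown, averaged 16.9 ± 5.66 FPKM at 14 DAS and 46.8 ± 4.22 FPKM at 12 DAS (-1.46 ± 0.20, adjusted p = 0.0035). A thionin-like peptide gene (Sevir.8G027500) averaged 99.9 ± 19.3 FPKM at 14 DAS and 281 ± 35.2 FPKM at 12 DAS (-1.49 ± 0.15, adjusted p = 0.000913). The unannotated gene Sevir.7G226700 had 2.64, 12.9, 6.84, and 12.7 FPKM at 14 DAS, against 29.7, 43.7, and 27.3 FPKM at 12 DAS (-1.98 ± 0.42, adjusted p = 0.0246).

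Whether the later change differed from the earlier one was tested in the 11 A10.1 libraries of 10, 12, and 14 DAS, with the change from 12 to 14 DAS minus that from 10 to 12 DAS. The intervals share the 12 DAS libraries, so an odd value there moves both. The difference passed for 131 of 17871 genes (0.733%), and 1444 had an unadjusted p under 0.05. Of the 131 genes, 49 had their lowest mean at 12 DAS, 40 had their highest mean at 12 DAS, 32 were higher at each stage, and 9 were lower at each stage, while the remaining gene, *SvRA1*, was at 0 at both 10 and 12 DAS. The test itself favours genes with an extreme at 12 DAS. The shapes were not counted over all genes tested, so these counts describe the 131 genes only. The count was 28 without replicate 1 and without replicate 4 of 12 DAS, 59 without replicate 2 of 12 DAS, 82 without replicate 3 and 77 without replicate 4 of 14 DAS, and 248 without replicate 4 of 10 DAS.

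Some genes with a late rise were at or near 0 before it. The *bd1*-like gene (Sevir.2G437800) was listed at 0 in all 4 libraries of 10 DAS and averaged 0.127 ± 0.219 FPKM at 12 DAS and 19.6 ± 6.58 FPKM at 14 DAS (difference of the changes 4.0 ± 0.38, adjusted p = 0.0012, limma). *SvRA1* (Sevir.2G209800) was likewise at 0 at 10 and 12 DAS (adjusted p = 0.00294). *SvRA3* (Sevir.2G407500) instead rose over both intervals, with means of 2.11, 19.1, and 146 FPKM at 10, 12, and 14 DAS, and its changes were not shown to differ (adjusted p = 1.0). *SvBA1*, *SvLG1*, and *SvTSH1* had the reverse order, with most of the change between 10 and 12 DAS: means were 3.65, 48.1, and 77.2 FPKM for *SvBA1* (Sevir.5G374100, adjusted p = 0.0132), 3.78, 43.9, and 71.7 FPKM for *SvLG1* (Sevir.3G023500, adjusted p = 0.00637), and 9.07, 36.4, and 33.9 FPKM for *SvTSH1* (Sevir.3G136200, adjusted p = 0.00352). A protein phosphatase 2C gene (Sevir.5G256600) likewise changed most before 12 DAS, with means of 4.28, 60.5, and 75.9 FPKM (-3.32 ± 0.47, adjusted p = 0.0076).

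Other genes turned at 12 DAS. *SvTFL1-like1* (Sevir.1G183200) had means of 34.2, 49.6, and 14.4 FPKM at 10, 12, and 14 DAS (adjusted p = 0.013, limma), the *SPL17*-like gene (Sevir.2G265300) 89.4, 184, and 79.0 FPKM (adjusted p = 0.00222), and *SvVT2* (Sevir.5G116300) 17.4, 33.0, and 21.4 FPKM (adjusted p = 0.00738). These had their highest mean at 12 DAS. The *TPS9*-like gene (Sevir.6G172300) was lowest there, with 2.74 ± 1.06, 0.0967 ± 0.0808, and 10.6 ± 1.66 FPKM (SD), and had the largest difference of the changes, 5.13 ± 0.35 (adjusted p = 6.06e-05). The *TPS11*-like gene (Sevir.1G354200) had means of 35.6, 16.4, and 41.7 FPKM (adjusted p = 0.00586) and an auxin-repressed protein gene (Sevir.9G187300) 37.9, 10.9, and 60.7 FPKM (adjusted p = 0.0132). A *LEC1*-type NF-Y gene (Sevir.1G308700), of a family known from embryos, had means of 1.80, 21.8, and 11.5 FPKM (adjusted p = 0.00738), although its difference between 14 and 12 DAS did not pass (-0.91 ± 0.30, adjusted p = 0.11). A peroxidase gene (Sevir.2G418800) had means of 0.4, 5.24, and 2.57 FPKM and also passed between 14 and 12 DAS (difference of the changes -2.98 ± 0.29, adjusted p = 0.0012). A C2H2 zinc finger gene (Sevir.6G252200) had means of 4.27, 29.0, and 13.6 FPKM (difference of the changes -3.52 ± 0.71, adjusted p = 0.045). Its difference of -1.08 between 14 and 12 DAS did not pass. A gene related to root cap and late embryogenesis proteins (Sevir.3G158200) was lowest at 12 DAS, with means of 7.29, 2.05, and 17.8 FPKM (3.88 ± 0.61, adjusted p = 0.0138). The *TAW1* family genes were highest at 10 DAS, and *SvTAW1* (Sevir.9G221800), with means of 61.6, 41.2, and 16.4 FPKM, did not pass for a difference of its changes (adjusted p = 0.666).

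**Figure D4:**
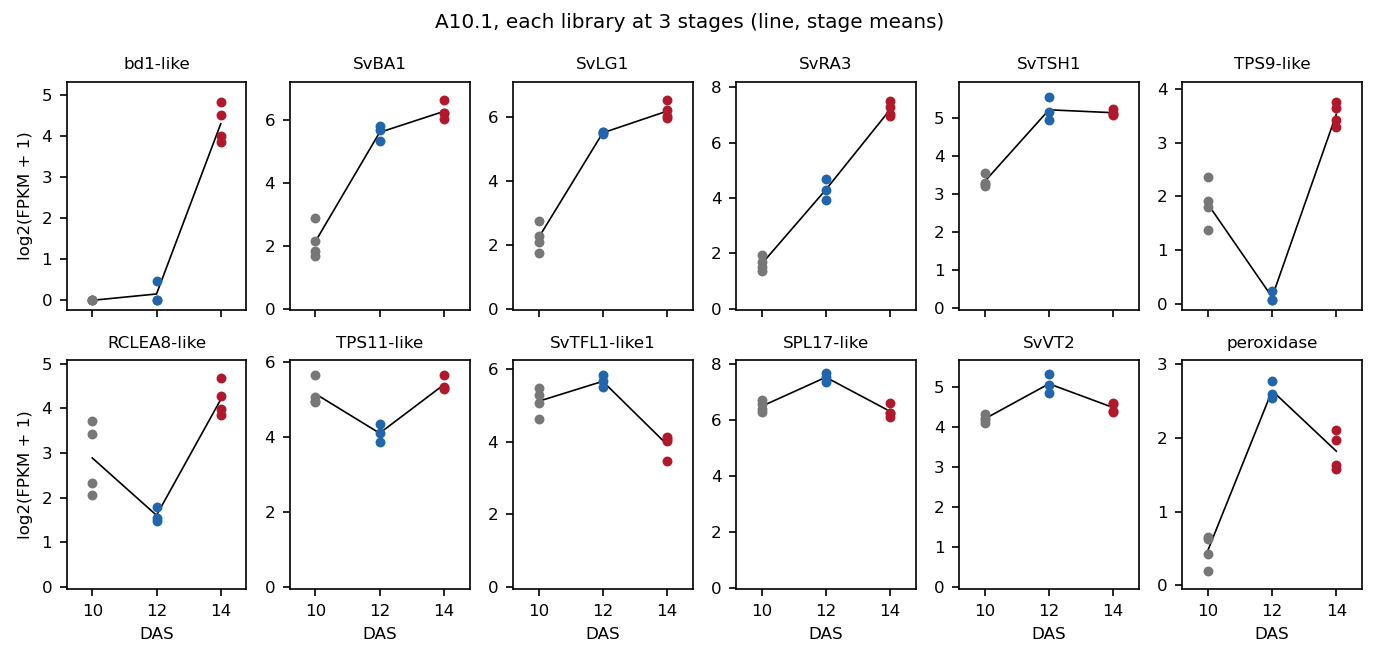
log2(FPKM + 1) of each A10.1 library at 10, 12, and 14 DAS (x axis) for 12 genes, with lines through the stage means. The *bd1*-like gene is at 0 at 10 DAS, *SvBA1* and *SvLG1* change most between 10 and 12 DAS, the *TPS9*-like gene is lowest at 12 DAS, and *SvTFL1-like1* and the *SPL17*-like gene are highest at 12 DAS.

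Whether the change from 12 to 14 DAS differed in *spp1* was tested with the change in *spp1* minus that in A10.1 over 14 libraries. Only 7 of 17720 genes passed (0.0395%), and 839 had an unadjusted p under 0.05. The *TPS9*-like gene (Sevir.6G172300) had 2.86, 1.42, 1.76, and 0.73 FPKM at 14 DAS and 0.06, 0.28, and 0.48 FPKM at 12 DAS in *spp1*, against 8.81, 12.5, 9.72, and 11.5 FPKM at 14 DAS and 0.05, 0.19, and 0.05 FPKM at 12 DAS in A10.1, so the stages were closer in *spp1* (-2.36 ± 0.31, adjusted p = 0.0255, limma). The inositol transporter gene (Sevir.2G037400) averaged 11.5 ± 1.47 FPKM at 14 DAS and 15.4 ± 2.60 FPKM at 12 DAS in *spp1*, against 27.0 ± 4.42 and 14.1 ± 0.926 FPKM in A10.1 (-1.27 ± 0.19, adjusted p = 0.0336). A universal stress protein gene (Sevir.9G243700) averaged 35.3 ± 4.59 FPKM at 14 DAS and 51.1 ± 8.84 FPKM at 12 DAS in *spp1*, against 68.2 ± 15.8 and 30.8 ± 4.27 FPKM in A10.1 (-1.62 ± 0.24, adjusted p = 0.0336). Both of these genes were lower at 14 than at 12 DAS in *spp1* and higher in A10.1. Sevir.1G184300 had 5.42 ± 1.09 and 6.66 ± 1.48 FPKM at 14 and 12 DAS in *spp1*, against 30.7 ± 8.41 and 8.18 ± 1.85 FPKM in A10.1 (-2.03 ± 0.31, adjusted p = 0.0336). Sevir.1G246600 had 0.728 ± 0.19 and 0.567 ± 0.129 FPKM at 14 and 12 DAS in *spp1*, against 7.07 ± 2.1 and 0.81 ± 0.314 FPKM in A10.1 (-2.0 ± 0.28, adjusted p = 0.0336). Sevir.4G142400 had 24 ± 4.78 and 16.8 ± 1.09 FPKM at 14 and 12 DAS in *spp1*, against 47.5 ± 3.06 and 13.5 ± 2.01 FPKM in A10.1 (-1.28 ± 0.19, adjusted p = 0.0336). These 3 genes have no described role, and their means at 14 DAS were higher in A10.1. The unannotated gene Sevir.7G056600 had a positive difference (1.31 ± 0.17, adjusted p = 0.0255), with 6.50 ± 0.791 and 4.11 ± 0.415 FPKM at 14 and 12 DAS in *spp1*, against 4.26 ± 0.542 and 7.90 ± 0.896 FPKM in A10.1. None of *SvRA1*, *SvRA3*, the *bd1*-like gene, the *TAW1* family, or the TFL1 homologs passed this test, which does not show that they changed alike in both genotypes. Of the 7 genes, Sevir.7G056600 alone passed with a pseudocount of 0.1 and with the replicate block, so the 6 with a negative difference, the *TPS9*-like gene (Sevir.6G172300) among them, lost their calls there. The *TPS9*-like gene passed in 7 of 18 alternatives and Sevir.7G056600 in 13 of 19, and the other 5 in 2 to 4. The count was 0 without replicate 1 or 2 of A10.1 at 12 DAS, replicate 2 of A10.1 at 14 DAS, or replicate 2 or 4 of *spp1* at 12 DAS, 8 and 6 without replicates 1 and 2 of *spp1* at 14 DAS, and 1 to 3 without each remaining library.

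**Figure D5:**
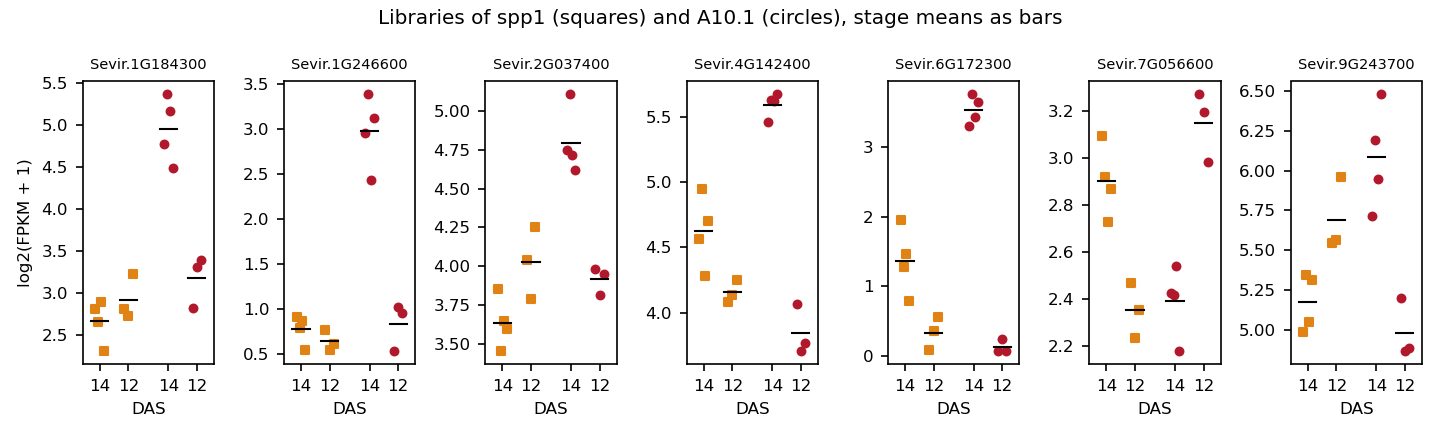
log2(FPKM + 1) of each library of *spp1* (orange squares) and A10.1 (red circles) at 14 and 12 DAS for the 7 genes whose change differed between genotypes, with stage means as bars. In 6 genes A10.1 is higher at 14 than at 12 DAS, while *spp1* is higher at 14 DAS by less or is lower (Sevir.1G184300, Sevir.2G037400, and Sevir.9G243700 have a lower mean). Sevir.7G056600 is higher at 14 DAS in *spp1* and lower at 14 DAS in A10.1.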

How the data were processed

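The authors trimmed the paired-end reads with Trimmomatic, checked them with FastQC, mapped them with TopHat2 and Bowtie2 on the version 1 *S. viridis* assembly, and deposited FPKM of primary transcripts from Cuffdiff, 1 value per gene and library. The library kit kept strand. Reads of near-identical gene copies may have been split between them. Options and tool versions are not given in the sources used here. The numbers of mapped reads and the percent mapped were also deposited. Further deposited tables hold the authors' group means, fold changes, p-values, and q-values for genes called between genotypes. From these only the text descriptions were used, and their numbers were not. Table columns of other samples left unused numbered 0.

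FPKM were analysed as log2(FPKM + 1), left otherwise as deposited, by limma 3.58.1 (R 4.3.3) with its empirical Bayes trend, separately for each comparison. Genes needed a mean of at least 1 FPKM over the libraries of the fit, and p-values were adjusted by the Benjamini-Hochberg method over all genes tested, with a threshold of 0.05. A fold change on this scale understates that of genes with low FPKM. The steps were tested on simulated data. Groups came from the labels. The intervals and groups, gene lists, and tests were chosen with earlier results of these data known. Named genes are those the study labelled in its comparison of the genotypes and auxin pathway genes that passed. They include the 10 annotated genes with the largest change in each direction and the first 2 whether annotated or not. Up to 4 members of each gene list by size of change, and genes with a maize name that passed, were also named. Of the genes labelled in the study and not passing, some are given as values and the rest are only counted. The genes with the 4 largest differences of the changes in each direction and the 7 that differed between genotypes were added after their values were seen. Gene names come from the deposited descriptions, since the RefSeq table matched none of the identifiers, so no sequence is printed. Settings varied in turn were the pseudocount (0.1), the filter (none, or a mean of 5 FPKM), median-ratio scaling, fits of all 22 or of the 11 A10.1 libraries, no trend, the replicate block, and the omission of each library. The result of 1 homeobox gene is not reported here.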

Additional observations from a re-analysis of the deposited data

Results flagged for a closer look

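Replicate 2 of A10.1 at 14 DAS lay far from the other 3 libraries of that stage in 5 of 170 named genes checked, and in its share of mapped reads. About 5% of groups pass the cutoff for such a gap by design, whichever library it lies in. The 170 genes share the same libraries and are not separate groups. Their share is therefore not set against that 5%, and why all 5 gaps lay in replicate 2 was not tested. Replicate 2 had 50.2 FPKM for the *TPS11*-like gene Sevir.1G354200 (others 38.3 to 39.3), 246 FPKM for *zap1* (Sevir.2G006400, others 198 to 205), and 75.3 FPKM for the LTI6B-like gene with the maize name *nac1* (Sevir.3G056200, others 51.0 to 52.3). It had 7.44 FPKM for the inositol oxygenase gene Sevir.4G252300 (others 2.17 to 2.60) and 139 FPKM for the *MADS34*-like gene Sevir.9G087100 (others 106 to 110). This library also had 89.35% of its first reads mapped, with the other 3 at 92.59% to 93.22%. Its part in these values was not tested.

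The 7 genes whose change from 12 to 14 DAS differed between genotypes by the test of the difference itself (limma) also stand out. The differences, *spp1* minus A10.1, were -2.03 for Sevir.1G184300, -2.0 for Sevir.1G246600, -1.27 for the inositol transporter gene Sevir.2G037400, -1.28 for Sevir.4G142400, -2.36 for the *TPS9*-like gene Sevir.6G172300, 1.31 for Sevir.7G056600, and -1.62 for the universal stress protein gene Sevir.9G243700.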

How the results depend on the processing

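The replicate numbers 1, 2, and 4 occur at both stages. Deviations from the stage means correlated at -0.04, 0.15, and 0.23 between same-numbered libraries. Differently numbered libraries were not set beside them, so these values cannot show whether the numbers pair the libraries. The main fit, with 1053 calls, left the numbers out. With the replicate block, the calls were 1802 between 14 and 12 DAS, 287 of more than 2-fold, 95 for the difference from the earlier change, and 2 between genotypes (both higher in *spp1*). More than 2-fold changes numbered 334 with a pseudocount of 0.1 and 143 at a mean of 5 FPKM. The difference from the earlier change was called for 64 genes with no filter. The difference between genotypes was called for 1 gene with a pseudocount of 0.1, 0 with no filter, and 3 under median-ratio scaling. Leaving out 1 library gave 574 to 1208 calls, 195 to 267 of more than 2-fold, 28 to 248 for the earlier change, and 0 to 8 between genotypes. Of 150 named genes called, 88 kept the call in every alternative, 97 in every alternative that left out no library, and 0 changed sign. Signs turned only in uncalled genes when 1 library was left out: *SvBM1* (Sevir.1G056800) ran from -0.36 to 0.01, *SvTSH1* (Sevir.3G136200) from -0.21 to 0.09, *SvABPH1* (Sevir.7G182100) from -0.12 to 0.33, and the AUX/IAA gene Sevir.2G061900 from -0.07 to 0.10, and was 0.03 and 0.01 without replicates 1 and 2 of 14 DAS. The causes were not tested. Precision rests on 4 and 3 libraries, since FPKM carry no depth.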
